A study of Mus musculus with 12 samples.

Results

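The comparison described here adds GW3965, an agonist of the liver X receptor (LXR), to cells in which glycogen synthase kinase 3 beta (GSK3 beta) was inhibited with CT99021. Its members were the 3 libraries labelled GW3965+CT99021 and the 3 labelled CT99021, 6 of the 12 libraries of the series, chosen by their titles and paired by replicate number. All 12 came from neurosphere cultures, free-floating clusters of neural progenitors and their progeny, grown from E11.5 embryonic ventral midbrain of the CD-1 mouse strain. Spheres of every group were expanded for 3 days and then kept for 5 h in N2 medium with CT99021, with GW3965, with both compounds, or with neither (labelled Control, whose treatment is given as none, while the protocol names DMSO as the vehicle). All 6 libraries compared here therefore carried CT99021, and only 3 carried GW3965. The labels give no dose, no number of embryos and nothing on what a replicate number stands for. The p-values of the main test set group differences against the variation left among all 12 libraries once replicate number was accounted for. Part or all of that variation may therefore be technical. RNA sequencing libraries were made from 0.5 µg of total RNA with the Illumina TruSeq kit, and only gene rows of the read-count table were used.

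LXR alpha and beta, encoded by Nr1h3 and Nr1h2, are nuclear receptors that pair with a retinoid X receptor, sit on DNA at spaced repeats of a short motif, and switch genes on when they bind oxidised forms of cholesterol. Their targets carry cholesterol out of the cell (Abca1, Abcg1), limit the uptake of lipoproteins (Mylip) and, through the transcription factor gene Srebf1, turn on the synthesis of fatty acids. GSK3 beta normally tags beta-catenin for destruction, so its inhibition turns on targets of Wnt signalling such as Axin2, and both LXR and Wnt signalling are known to act in the formation of midbrain dopaminergic neurons.

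The 6 libraries held 11499130 to 19248735 counts in gene rows. Markers of neural progenitors (Sox2, Nes, Fabp7), ventral midbrain (Foxa2, Lmx1a, En1) and neurons (Tubb3, Dcx) were detected in all 6, as were collagen genes of mesenchyme and globin genes of red cells, and no marker on those lists was at 0. CT99021 replicate 1 stood apart by Lars2, a mitochondrial leucyl-tRNA synthetase gene, which took 7.95% of its gene counts against 0.0336% to 0.142% in the other 11 libraries. Its share of all counts in rows of repeat sequences was also the highest, at 0.643% against 0.197% to 0.328% in the other 11. The 4 libraries numbered 3 together with GW3965+CT99021 replicate 2 also lay apart from the other 7 in 159 genes. The gap was at least 1.5 times, with 0.5 CPM added. With any other library in place of GW3965+CT99021 replicate 2 the number was 0 to 14 genes. The set of 5 was picked from these same data. Each swap left GW3965+CT99021 replicate 2 among the 7, which by itself lowers the number, so the contrast is a description and no test. These 5 libraries hold 2 of the 3 GW3965+CT99021 libraries and 1 of the 3 CT99021 libraries. Levels are given as CPM, counts scaled to a common library total with factors for library composition, and log2 fold changes carry a standard error (SE). A gene is said to have risen or fallen only where edgeR's quasi-likelihood test with the replicate number as a block gave a Benjamini-Hochberg adjusted p under 0.05 over 15608 genes.

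Adding GW3965 on top of CT99021 raised 3 genes, the sterol exporters Abca1 and Abcg1 and the lipogenic transcription factor gene Srebf1, and lowered none. These 3 were 0.0192% of the genes tested. At an unadjusted p under 0.05 there were 533 genes higher (3.41%) and 483 lower (3.09%), and the median log2 fold change of all genes was 0.0029. The median 95% interval, not adjusted for the number of genes, reached 0.29 log2 units to either side of the estimate, and the adjusted test asked for more: Scd2, at 0.68 with an SE of 0.11, did not pass it. The same count was 3 with limma-voom and 13 with DESeq2, all with the block, and 0 with edgeR without the block, with only the 6 libraries compared, without replicate number 1 or without replicate number 2. It was 9 without replicate number 3. It was 10 without GW3965+CT99021 replicate 3 and 2 when CT99021 replicate 1 with its high Lars2 was left out, where Abca1 and Srebf1 were called. In the 7 libraries outside the set of 5, with a single GW3965+CT99021 library assumed to vary like the others, 25 genes were higher and 65 lower.

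Abca1, the transporter that loads cholesterol and phospholipid onto lipid-poor apolipoproteins, rose most of the 3. The table lists it on chromosome 4 at position 53043660, minus strand, in the mm9 build. Replicates 1, 2 and 3 of the CT99021 libraries held 19.4, 20.5 and 106 CPM, and those of the GW3965+CT99021 libraries 126, 109.8 and 363 CPM. Replicate 3 was the highest of its group both times, and the lowest library with GW3965 lay just above the highest without it, so the groups did not overlap. The 3 ratios within replicate numbers were 2.67, 2.39 and 1.77 on the log2 scale. The fitted log2 fold change was 2.26 ± 0.18 (SE, 3 pairs, edgeR adjusted p = 0.00131), or 4.79-fold, with a 95% interval of 1.87 to 2.65. It was 2.09 without CT99021 replicate 1 (edgeR adjusted p = 0.0116).

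Abcg1, which passes cholesterol to high-density lipoprotein particles, was scarcer. Its level per transcript length averaged 2.76 RPKM (the CPM level divided by transcript length in kilobases) over the 6 libraries, against 11.98 for Abca1. It is listed on chromosome 17 at position 31194538, plus strand. CT99021 libraries held 6.88, 8.43 and 4.36 CPM and GW3965+CT99021 libraries 32.4, 22.9 and 23.1 CPM for replicates 1, 2 and 3. Every library with GW3965 was far above every library without it. Abcg1 rose by 1.98 ± 0.25 (log2, SE, edgeR adjusted p = 0.0496, 95% interval 1.43 to 2.53, higher in 3 of 3 pairs). Its adjusted p stood close to the threshold and exceeded it when any of 9 single libraries was left out, and Abcg1 passed in 11 of 25 alternatives. The edgeR adjusted p was 0.365 without CT99021 replicate 1 and 0.368 without CT99021 replicate 3. It was 0.427, 0.179 and 0.0625 without GW3965+CT99021 replicate 1, 2 or 3. Leaving out libraries of the groups not compared, which share the estimate of the spread, gave edgeR adjusted p of 0.0642 and 0.136 without Control replicate 1 or 2, and 0.108 and 0.0626 without GW3965 replicate 1 or 2. It still passed without CT99021 replicate 2, Control replicate 3 or GW3965 replicate 3, at 0.0283, 0.0486 and 0.0081. The log2 fold change itself stayed between 1.80 and 2.31 over all alternatives.

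Srebf1 encodes SREBP-1, the transcription factor that drives fatty acid and triglyceride synthesis, and was the most tightly measured of the 3. It is listed on chromosome 11 at position 60012590, minus strand. CT99021 libraries held 108, 150.3 and 106 CPM and GW3965+CT99021 libraries 231, 285 and 256 CPM. Every library with GW3965 was above every library without it. The log2 fold change was 1.10 ± 0.09 (SE, edgeR adjusted p = 0.00131, 95% interval 0.90 to 1.29), or 2.14-fold. It was 1.08 without CT99021 replicate 1 (edgeR adjusted p = 0.0116). The plot of levels by library shows the 3 genes beside lipid genes that did not pass the test.

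**Figure D1:**
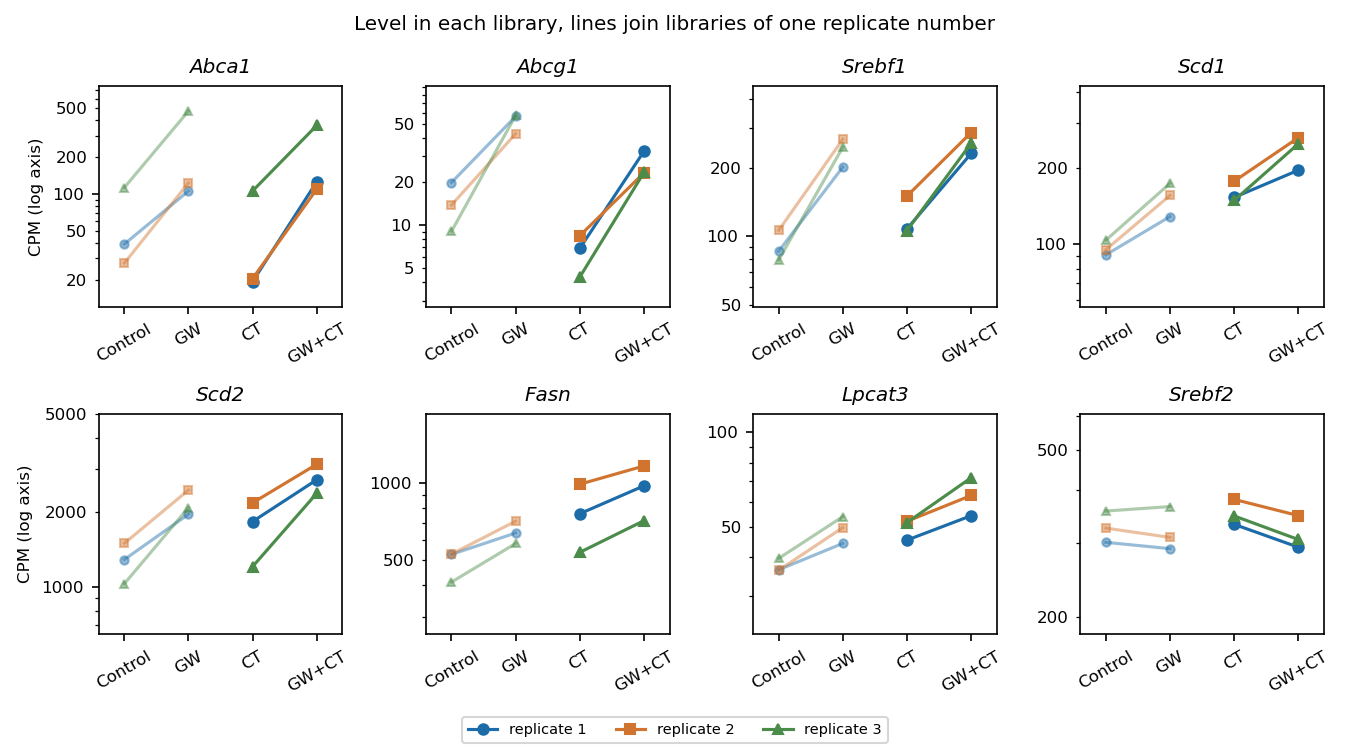
CPM (log axis) of 8 lipid genes in each of the 12 libraries, with lines joining libraries of one replicate number: Control and GW3965 (GW, pale) and CT99021 and GW3965+CT99021 (CT and GW+CT, solid). Abca1, Abcg1 and Srebf1 were higher with GW3965 in 3 of 3 pairs under CT99021, and the Abca1 libraries numbered 3 sat at 106 and 363 CPM.

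Promoters of Abca1 and Srebf1, which rose, and of Fasn and Acsl3, which did not pass the test, are shown because LXR acts at direct repeats and all 4 hold a like one. RefSeq windows of 300 bases, 250 before and 50 after the start (build GRCm38.p6), were searched on both strands for NGGTNANNNNNGGTNA, a direct repeat spaced by 4 bases with free positions. It occurred in 236 of 32851 windows (0.718%), in 221 of 27025 genes (0.818%), and the stricter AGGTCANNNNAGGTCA occurred in 5 (0.0152%) and in none of the windows below. Of the LXR target genes with a window, 2 of 14 held the looser motif, Abca1 and, in the third of its 3 windows, Srebf1. Of the fatty acid synthesis genes 4 of 17 held it, namely Srebf1, the fatty acid synthase gene Fasn, the acyl-CoA synthetase gene Acsl3 and the elongase gene Elovl1. Of 20 genes of cholesterol metabolism and 11 Wnt targets with a window, 0 held it. Abcg1, which also rose, and Scd1 and Scd2 had no window and were not searched. The 250 bases before the start are printed 5′ to 3′ on the gene's strand, with the match in capitals. The match of Elovl1, TGGTCAGAGGTGGTGA, reads in the gene's own direction at bases 165 to 150 before the start and is not shown in its window. In the 4 windows shown the match reads in the direction opposite to the gene, so the capitals are the reverse complement of the motif. In those it spans bases 67 to 52 before the start of Abca1 (chr4:53159896-53160145, minus strand), 182 to 167 for Srebf1 (chr11:60210472-60210721, minus strand), 225 to 210 for Fasn (chr11:120824548-120824797, minus strand) and 112 to 97 for Acsl3 (chr1:78657575-78657824, plus strand).
Abca1: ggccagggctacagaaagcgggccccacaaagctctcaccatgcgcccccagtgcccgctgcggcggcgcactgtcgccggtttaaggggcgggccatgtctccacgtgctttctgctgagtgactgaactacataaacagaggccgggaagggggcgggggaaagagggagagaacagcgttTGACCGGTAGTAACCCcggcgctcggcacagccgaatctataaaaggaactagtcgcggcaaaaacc
Srebf1: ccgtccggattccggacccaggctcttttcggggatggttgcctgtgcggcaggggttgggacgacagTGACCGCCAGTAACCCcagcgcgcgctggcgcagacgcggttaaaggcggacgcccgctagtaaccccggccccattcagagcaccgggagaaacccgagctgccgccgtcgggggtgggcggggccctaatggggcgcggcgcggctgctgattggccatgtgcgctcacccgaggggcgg
Fasn: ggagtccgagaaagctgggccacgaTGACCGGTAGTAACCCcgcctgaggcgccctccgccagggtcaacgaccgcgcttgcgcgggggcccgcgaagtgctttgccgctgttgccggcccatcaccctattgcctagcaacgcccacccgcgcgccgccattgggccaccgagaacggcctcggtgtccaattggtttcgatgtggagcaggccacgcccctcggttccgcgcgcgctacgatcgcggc
Acsl3: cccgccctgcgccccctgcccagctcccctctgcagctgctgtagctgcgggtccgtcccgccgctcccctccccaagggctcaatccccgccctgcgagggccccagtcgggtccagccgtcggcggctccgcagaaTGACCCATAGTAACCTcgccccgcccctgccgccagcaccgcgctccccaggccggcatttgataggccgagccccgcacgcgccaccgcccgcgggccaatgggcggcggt
Abca1 and Fasn hold the same 16 bases, which read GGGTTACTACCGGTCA on the other strand. Srebf1 reads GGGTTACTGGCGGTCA and Acsl3 AGGTTACTATGGGTCA there. A match describes letters in a window and was not tested as a binding site.

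The LXR target list held 19 genes, of which 16 were abundant enough to be tested. Of the 16, the 3 named above rose and none fell, and 6 were higher and 3 lower in all 3 pairs (13.9% and 11.3% of all genes). In 4 the groups did not overlap, all higher (1.66% of all genes). At an edgeR unadjusted p under 0.05, 7 were higher and 1 lower (3.41% and 3.09% of all genes). The median over the 16 was 0.04, with 0.23, 0.21 and -0.08 in pairs 1, 2 and 3. It was -0.02 without CT99021 replicate 1 or without replicate number 1, -0.0068 without the block, 0.16 without CT99021 replicate 3, 0.12 without GW3965+CT99021 replicate 3, 0.21 without replicate number 3, 0.17 with the stricter filter on low counts and 0.18 with only the 7 libraries outside the 5. Mylip, a ubiquitin ligase that limits lipoprotein uptake, stood at 11.02, 7.73 and 37.0 CPM with CT99021 and at 15.7, 18.5 and 42.6 CPM with both compounds. It was higher in each pair, but its groups overlapped, since CT99021 replicate 3 exceeded 2 of the libraries with GW3965. Its log2 fold change was 0.66 ± 0.21 (SE, edgeR adjusted p = 0.734). Lpcat3, an enzyme that places polyunsaturated chains into membrane phospholipids, stood at 45.4, 52.1 and 51.6 CPM against 54.2, 62.9 and 71.7 CPM. Its groups did not overlap, and its log2 fold change was 0.34 ± 0.07 (SE, edgeR adjusted p = 0.734). Rnf145, a ubiquitin ligase in sterol control, was named after its values were seen, with 0.31 ± 0.08.

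Of the other listed targets, Nr1h3 is described with the receptors below, and 5 more were named after their values were seen. Apoe, the main lipid carrier of the brain, stood at 129.6, 123 and 139 CPM against 149, 109.8 and 114 CPM, with overlapping groups and a log2 fold change of -0.08 (95% interval -0.32 to 0.16). The interval for Apoe leaves out an increase of the size seen for Srebf1. Pltp, which moves phospholipid between lipoproteins, was at 0.08, Abcg4, a neural relative of Abcg1, at -0.15, and Arl4c, a small GTPase, at -0.11. The lipoprotein lipase gene Lpl was lower in 3 of 3 pairs, at 111, 61.2 and 71.8 CPM with CT99021 and 64.4, 33.9 and 68.8 CPM with both compounds, with a log2 fold change of -0.57 ± 0.22 (SE, edgeR adjusted p = 0.734). Replicate 3 of Lpl hardly differed, while replicates 1 and 2 did.

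The receptors themselves and their partners did not pass the test. Nr1h2 stood at 36.0, 38.9 and 36.4 CPM with CT99021 and at 32.3, 34.6 and 30.1 CPM with both compounds. Its groups did not overlap, being lower with GW3965 (1.19% of all genes), and its log2 fold change was -0.20 (95% interval -0.40 to 0.01). Nr1h3, which is itself an LXR target, was scarce, at 0.734, 0.817 and 4.16 CPM against 1.96, 2.88 and 3.65 CPM. It was higher in replicates 1 and 2 and lower in replicate 3, with a log2 fold change of 0.90 ± 0.40 (SE, edgeR adjusted p = 0.734). Of 15 receptors, retinoid X receptors and coregulators tested, none passed and the median was 0.10. Among the most abundant (here and below by mean CPM, which is not scaled for length), the corepressor gene Ncor1 was at 0.09. Of 6 tested enzymes that make or break down oxysterols, none passed, and the most abundant were Hsd3b7 at 0.15 and Cyp39a1 at 0.12. Their median was 0.11, or -0.20 in the 7 libraries outside the set of 5.

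Fatty acid synthesis held the most genes that were higher in all 3 pairs of any list. Of 20 genes, 19 were tested, and 1 of them, Srebf1, rose. In all, 11 were higher in all 3 pairs and 0 lower (13.9% and 11.3% of all genes), 5 did not overlap between groups, all higher (1.66% of all genes), and 9 were higher and 0 lower at an unadjusted p under 0.05 (3.41% and 3.09% of all genes). The median log2 fold change of the 19 was 0.20, with 0.17, 0.18 and 0.24 in pairs 1, 2 and 3, and it lay between 0.12 and 0.24 over all alternatives.

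The members beside Srebf1 with the largest values were the stearoyl-CoA desaturases, which put the first double bond into saturated fatty acids. Scd2, the form of the developing brain, had by far the highest level per transcript length of the genes shown by library, at 404 RPKM. It stood at 1837, 2186 and 1208 CPM with CT99021 and at 2709, 3129 and 2389 CPM with both compounds. Each library with GW3965 exceeded each library without it. The log2 fold change was 0.68 ± 0.11 (SE, edgeR adjusted p = 0.334, 95% interval 0.43 to 0.93). Scd1, the liver and fat form, stood at 153, 177 and 149 CPM against 196, 263 and 249 CPM, again without overlap, with 0.55 ± 0.10 (SE, edgeR adjusted p = 0.351). Scd3 and Scd4, named after their values were seen, were at 0.69 ± 0.11 (SE, edgeR adjusted p = 0.294) and 0.47 ± 0.13. DESeq2 with the block called Scd1, Scd2 and Scd3, at adjusted p of 0.000223, 7.5e-06 and 3.7e-05, and edgeR called Scd3 without GW3965 replicate 3 (adjusted p = 0.0266). Without replicate number 3 edgeR called Scd2 and Scd3, each at an adjusted p of 0.0446, and with only the 7 libraries outside the 5 at 0.0123 and 0.0312. The 4 genes are similar neighbours on chromosome 19, and the treatment of reads that match several of them is not given in the sources used here, so their values may not be separate.

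Enzymes upstream of the desaturases differed less. Fasn stood at 759, 989 and 536 CPM with CT99021 and at 975, 1166 and 712 CPM with both compounds. Its levels overlapped between groups because the 3 replicate numbers lay far apart, while each pair was higher with GW3965. Its log2 fold change was 0.33 ± 0.11 (SE, edgeR adjusted p = 0.734), and that of the acetyl-CoA carboxylase gene Acaca, which makes malonyl-CoA for fatty acid synthase, was 0.32 ± 0.08. Acsl3, which activates fatty acids for lipid droplets, stood at 118, 124 and 125 CPM against 138, 153 and 206 CPM and was at 0.42 ± 0.10. Gpam, the first enzyme of glycerolipid synthesis, was at 0.23 and the elongase gene Elovl5 at 0.20. By contrast Acly, which makes cytosolic acetyl-CoA, was at -0.12 (95% interval -0.36 to 0.12), and the polyunsaturated fatty acid desaturases Fads1 and Fads2 at 0.00 and -0.03, with intervals of -0.16 to 0.15 and -0.18 to 0.11. Acsl3, Gpam, Elovl5, Acly, Fads1 and Fads2 were named after their values were seen. The plot of fitted changes sets the 4 lists side by side.

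**Figure D2:**
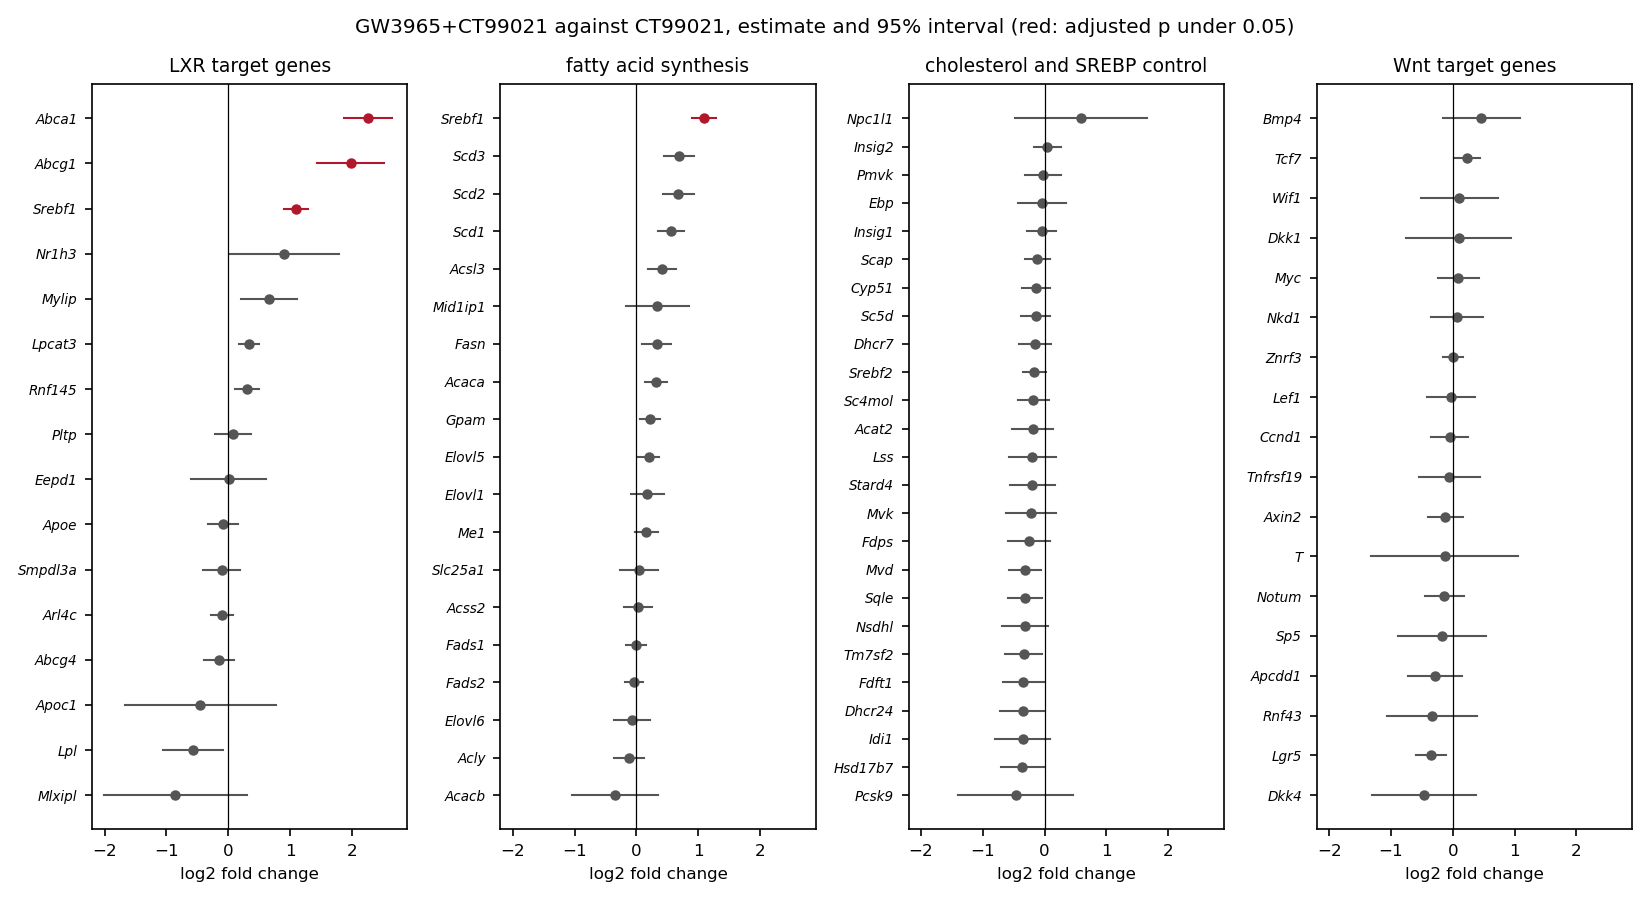
Log2 fold change of GW3965+CT99021 against CT99021 (points) with 95% intervals (bars) for members of 4 gene lists (not every tested member of the cholesterol list is drawn), red where the adjusted p was under 0.05. The 3 red genes are Abca1, Abcg1 and Srebf1 (Srebf1 is on 2 lists). Of the fatty acid synthesis members 14 of 19 lie right of 0, and most cholesterol members lie left of 0. Of all 15608 genes tested, 7922 were above 0 and 7686 below.

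Lipid storage and breakdown showed less. Of 15 tested genes of triglyceride and lipid droplets none passed, with a median of 0.06, and the most abundant were the phosphatidate phosphatase gene Lpin2 at 0.05 and the seipin gene Bscl2 at 0.09. Of 15 tested genes of fatty acid oxidation none passed, with a median of 0.02. There Hadha, a subunit of the mitochondrial trifunctional protein, was at -0.04.

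Genes of cholesterol synthesis and uptake leaned the other way. Of 27 tested, none passed the test, and 25 had a fold change below 0, against 7686 of all 15608 genes. In all 3 pairs 13 were lower and 0 higher (11.3% and 13.9% of all genes). At an unadjusted p under 0.05, 5 were lower (3.09% of all genes). Other lists were also one-sided, with 18 of 19 DNA replication and 16 of 18 mitosis genes below 0 and 16 of 16 stress genes above 0. The median was -0.19, with -0.21, -0.12 and -0.26 in pairs 1, 2 and 3, and it lay between -0.26 and -0.11 over all alternatives. In GW3965 against Control the pair medians of this list were 0.03, -0.05 and -0.36. Srebf2, the transcription factor that turns on this pathway, stood at 332, 380.5 and 348 CPM with CT99021 and at 293, 348 and 305 CPM with both compounds. Each pair was lower with GW3965 while the groups overlapped, and the log2 fold change was -0.16 (95% interval -0.35 to 0.02). The squalene epoxidase gene Sqle, named after its values were seen, stood at 274, 272 and 195 CPM against 226, 246 and 133 CPM and was at -0.31 ± 0.12 (SE, edgeR adjusted p = 0.734). Insig1 and Insig2, which hold the sterol sensor in the endoplasmic reticulum and were also named after their values were seen, were at -0.05 and 0.05. The gene Hmgcs1 on this list was not analysed here.

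Wnt target genes were used to see the state that both groups shared and whether GW3965 moved it. Axin2, a feedback inhibitor of Wnt signalling, stood at 72.8, 108 and 40.4 CPM in the Control libraries and at 278, 384 and 96.3 CPM in the CT99021 libraries. In every replicate number the CT99021 library was the higher, as it was for Lef1 and Notum. With both compounds Axin2 stood at 249.99, 381 and 82.8 CPM, lower than with CT99021 in each of the 3 pairs, while the groups overlapped. The log2 fold change with GW3965 was -0.12 (95% interval -0.41 to 0.17). Lef1, a transcription factor partner of beta-catenin, was at -0.03 (95% interval -0.42 to 0.36), and Notum, which removes the lipid from Wnt proteins, at -0.14 (95% interval -0.45 to 0.18). Of 18 Wnt targets none passed, and 1 was higher and 4 lower in all 3 pairs (13.9% and 11.3% of all genes). Their median was -0.05, with -0.0027, -0.06 and -0.16 in pairs 1, 2 and 3. It lay between -0.15 and 0.05 over all alternatives, and was highest in the 7 libraries outside the set of 5. The most abundant, the Wnt inhibitor gene Apcdd1 and the receptor gene Tnfrsf19, were at -0.29 and -0.05. Lgr5, a receptor for R-spondins named after its values were seen, was lower in each pair, at 34.0, 28.0 and 13.9 CPM against 25.8, 19.1 and 13.1 CPM, with -0.35 ± 0.11 (SE, edgeR adjusted p = 0.734).

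None of the neural lists held a gene past the test. Among 17 floor plate and dopaminergic progenitor genes the median was -0.09, with Foxa2 and Lmx1a, transcription factors of these progenitors, at -0.13 ± 0.13 and -0.23 ± 0.21 (SE). The most abundant members were the guidance genes Ntn1 at -0.04 and Slit2 at 0.17. Among 11 dopaminergic neuron genes the median was -0.02. Th, which catalyses the limiting step on the way to dopamine, was low at 0.303 to 0.902 CPM over the 6 libraries, so its log2 fold change of 0.33 ± 0.40 (SE) shows little. Nr4a2, a transcription factor that dopaminergic neurons need, stood at 19.1, 17.04 and 19.3 CPM against 15.1, 19.7 and 13.4 CPM, with overlapping groups and -0.19 ± 0.17 (SE). The engrailed genes En1 and En2, which set midbrain identity, were at 0.00 and -0.13.

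Other neural lists gave medians between -0.18 and -0.04. Neural progenitor genes had a median of -0.10, with the intermediate filament genes Vim at 0.12 and Nes at 0.10. Pan-neuronal genes had -0.05, with the tubulin gene Tubb3 at -0.11 and the microtubule-binding gene Dcx at 0.10. Genes of other midbrain neurons had -0.17, with the GABA synthesis genes Gad1 at 0.07 and Gad2 at -0.18. Proneural factors had -0.18, with Neurog2 at -0.28, and the Notch pathway -0.10, with Notch2 at 0.09 and Notch3 at 0.02. Mitosis genes had -0.04, with the proliferation marker Mki67 at -0.05 and the topoisomerase gene Top2a at 0.06, and DNA replication genes -0.15, with the reductase subunit gene Rrm1 at -0.11 and the sliding clamp gene Pcna at -0.09. Genes of midbrain and isthmus identity, again led in level by En2 and En1, had -0.10. The progenitor, pan-neuronal, proneural, Notch, mitosis and DNA replication medians were above 0 in pair 1 and below 0 in pairs 2 and 3. With only the 7 libraries outside the 5, these 6 medians were 0.11, 0.07, 0.07, 0.27, 0.10 and 0.07, and that of the dopaminergic neuron genes was 0.03. Musashi-1 (Msi1), an RNA-binding protein of neural stem cells named after its values were seen, was the progenitor gene with the clearest difference, at 92.0, 104 and 70.4 CPM against 78.4, 87.8 and 54.8 CPM. It was lower in each pair with overlapping groups and had a log2 fold change of -0.28 ± 0.07 (SE, edgeR adjusted p = 0.734).

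Lists of stress and immediate early genes differed between replicate numbers. Of 16 genes that answer to amino acid shortage or misfolded protein none passed, yet the median was 0.38, made up of -0.06, -0.02 and 1.21 in pairs 1, 2 and 3. Ddit3, a stress transcription factor named after its values were seen, stood at 22.2, 23.4 and 25.4 CPM with CT99021 and at 20.6, 22.6 and 127 CPM with both compounds. Only replicate 3 of the GW3965+CT99021 libraries was high. The most abundant members, the chaperone gene Hspa5 and the cystine transporter gene Slc7a11, were at 0.36 ± 0.14 and 0.19 ± 0.13 (SE). Slc7a11 was the 1 gene of the 16 that was higher without overlap (1.66% of all genes), at an edgeR unadjusted p of 0.185. Without the libraries numbered 3 the list's median was -0.07, and with only the 7 libraries outside the 5 it was -0.10. The 15 immediate early genes showed the same split, with a median of 0.33, pair medians of -0.03, -0.08 and 0.94, and Jun and Egr1 at 0.35 and 0.36, and the median in those 7 libraries was -0.10. In GW3965 against Control the pair medians of the stress list were -0.02, -0.02 and 1.26.

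In whole cultures fewer cells of a type and less RNA per cell cannot be told apart. Of 15 mesenchyme and pericyte genes none passed, the median was 0.40, and pairs 1, 2 and 3 gave 0.40, 1.18 and -0.10. Their summed level was 1823, 427 and 4347 CPM with CT99021 and 2532, 1065 and 3617 CPM with both compounds. The collagen genes Col3a1 and Col1a1, the most abundant, were at 0.77 ± 0.31 and 0.31 ± 0.36 (SE). Of 9 endothelial genes none passed, with a median of 0.48 and summed levels of 50.6, 48.1 and 75.0 CPM against 94.2, 67.5 and 61.0 CPM, and the cadherin gene Cdh5 and the receptor gene Kdr were at 0.98 and 0.15. For mesenchyme and endothelial genes replicate 3 thus went against replicates 1 and 2.

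Red cell genes were lower in median in each of the 3 pairs. Of 14 rows, several of which are near-identical globin loci that may share reads, none passed and 11 were lower in all 3 pairs (11.3% of all genes). The median was -0.29, with -0.26, -0.24 and -0.30 in the pairs, and the summed level was lower in each pair, at 16020, 26868 and 35514 CPM with CT99021 and 13318, 21332 and 28617 CPM with both compounds. The most abundant were the embryonic beta globin gene Hbb-y at -0.28 ± 0.13 and an alpha globin row, Hba-a2_loc1, at -0.31 ± 0.14 (SE). Microglia and macrophage genes had a median of -0.31, with 0.10, -0.0049 and -0.82 in pairs 1, 2 and 3. They were led in level by Cd68 at -0.04 and Csf1r at -0.31. Oligodendrocyte lineage genes had -0.27 (0.19, -0.22 and -0.13 in the pairs), with the growth factor receptor gene Pdgfra, which mesenchyme also carries, at 0.69. In the 7 libraries outside the set of 5 the microglia and oligodendrocyte medians were 0.09 and 0.12. Neural crest genes had -0.18 (-0.21, 0.25 and -0.52 in the pairs), with Tfap2b at -0.18 and Ednrb at 0.02. The part of these cell types in the lipid genes was not tested.

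**Figure D3:**
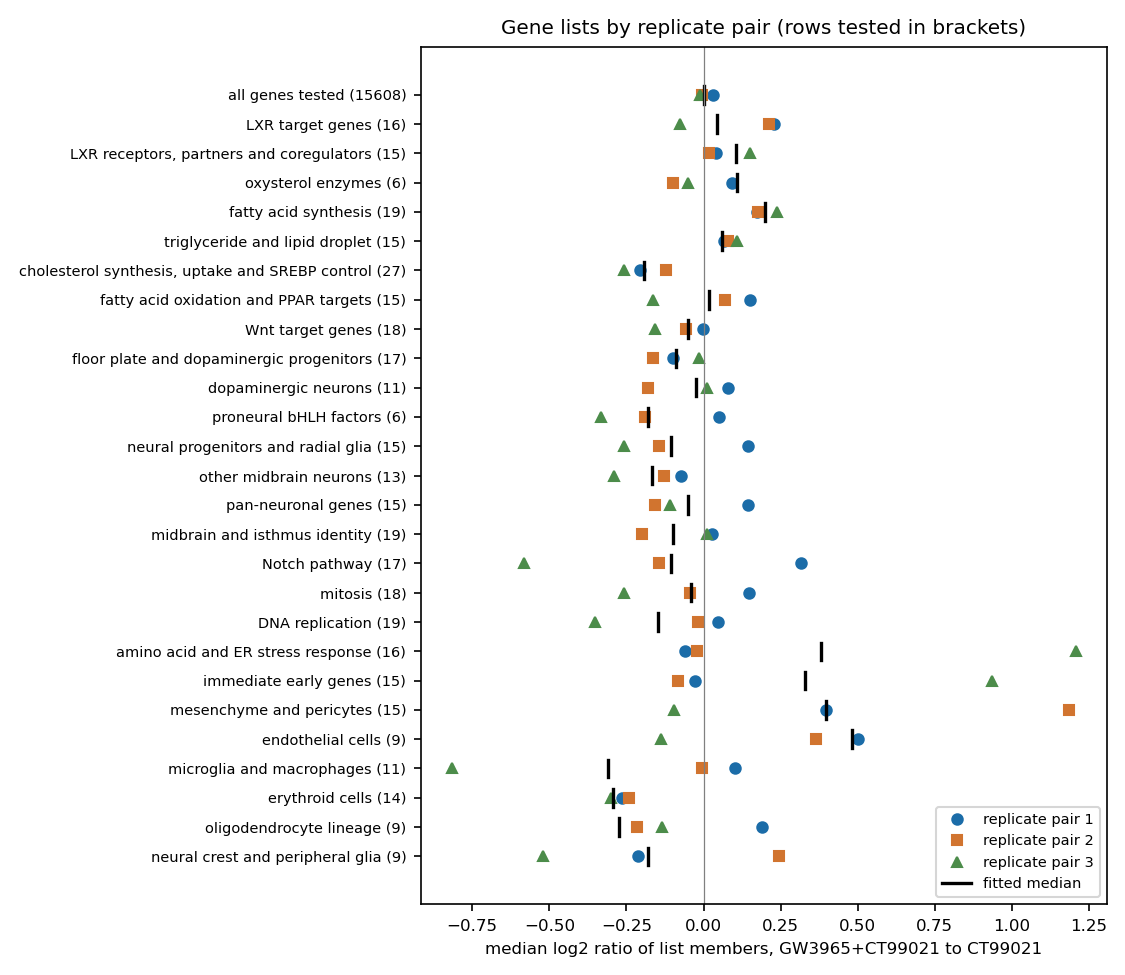
Median log2 ratio of GW3965+CT99021 to CT99021 over the tested members of each gene list, for replicate pairs 1, 2 and 3 (symbols) and for the fit (black bar), with the number of rows tested in brackets. Fatty acid synthesis lay above 0 and cholesterol and red cell genes below 0 in all 3 pairs. The LXR receptor and triglyceride lists also lay above 0 in all 3 pairs. Wnt targets, floor plate genes and other midbrain neurons also lay below 0 in all 3 pairs. Stress and immediate early genes stood at 1.21 and 0.94 in pair 3 alone.

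The same agonist was given without CT99021 in the GW3965 and Control libraries, which share no library with the comparison above. There too 3 genes were called, 0.0192% of those tested, with 2.47% at an unadjusted p under 0.05, again Abca1, Abcg1 and Srebf1. Abca1 was at 1.89 ± 0.17, Abcg1 at 1.92 ± 0.23 and Srebf1 at 1.397 ± 0.089 (log2, SE, edgeR adjusted p of 0.00387, 0.0322 and 0.000264). Control libraries held 39.1, 27.3 and 113 CPM of Abca1, 19.7, 13.7 and 9.04 CPM of Abcg1 and 86.1, 106 and 78.8 CPM of Srebf1. GW3965 libraries held 106, 123 and 475 CPM of Abca1, 56.5, 42.9 and 57.3 CPM of Abcg1 and 201, 267 and 246 CPM of Srebf1. Abcg1 was thus lower under CT99021 both with and without GW3965 in every replicate number, while its change with GW3965 was 1.98 with CT99021 and 1.92 without it.

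Whether CT99021 altered the response was tested by the interaction, the change with GW3965 under CT99021 minus the change without it. No gene passed with edgeR, DESeq2 or limma-voom, and 522 were at an unadjusted p under 0.05 with edgeR (3.34%). The difference was 0.37 for Abca1 (95% interval -0.16 to 0.90) and 0.06 for Abcg1 (95% interval -0.66 to 0.79). For Srebf1 it was -0.30 (95% interval -0.58 to -0.03, edgeR adjusted p = 0.999), a smaller change under CT99021 that did not survive the adjustment. For Scd2, Scd1 and Fasn the difference was -0.11, -0.10 and -0.07, with intervals of -0.47 to 0.25, -0.40 to 0.20 and -0.40 to 0.26. For Mylip it was 0.27 (95% interval -0.38 to 0.91) and for Lpcat3 -0.05 (95% interval -0.29 to 0.18). A p that misses the threshold does not show that the responses were equal, and these intervals give the differences the data allow.

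**Figure D4:**
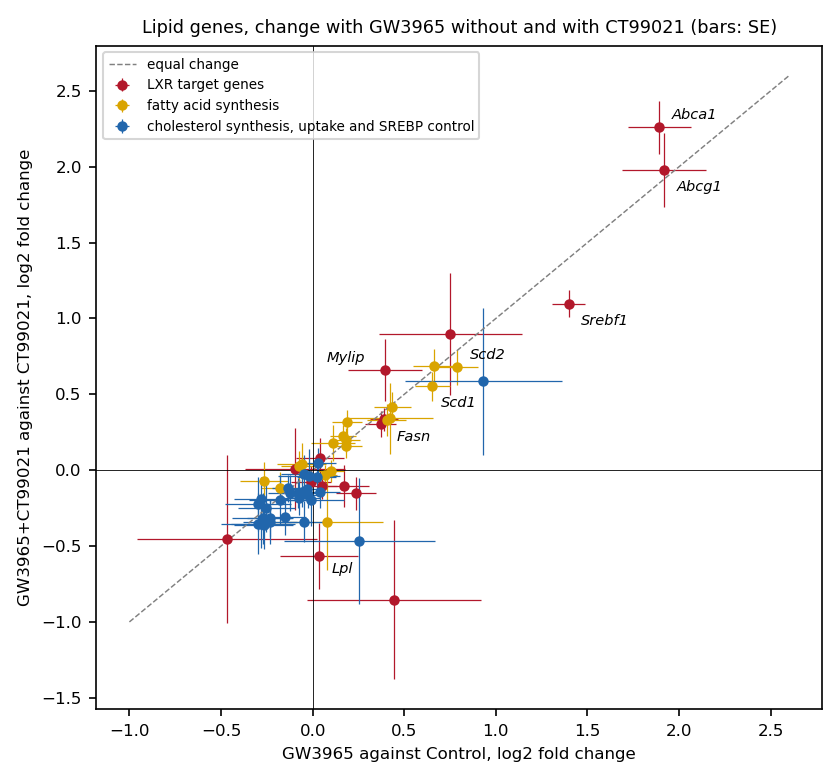
Log2 fold change with GW3965 in Control medium (horizontal axis) and under CT99021 (vertical axis) for tested members of 3 lipid gene lists, with SE bars and a dashed line of equal change. Abca1 (1.89 and 2.26), Abcg1 (1.92 and 1.98) and Srebf1 (1.397 and 1.096) have the highest values on both axes, and Nr1h3, with wide bars, comes next under CT99021 at 0.90.

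Among genes outside the lists, none passed in either direction, and those named here were chosen after their values were seen. DESeq2 with the block called 13 genes, 10 higher and 3 lower. Beside Abca1, Abcg1, Srebf1, Scd1, Scd2 and Scd3, those higher were Mir5114, Nfat5, Fn1 and Med13, and those lower included Pcsk1n and mt-Ts1. The row of the microRNA gene Mir5114, at 1.14 ± 0.23 (SE), is listed next to Scd2 on the same strand of chromosome 19, and whether its counts are reads of Scd2 was not tested. Nfat5, a transcription factor of the osmotic stress response, was at 0.50 ± 0.10, the fibronectin gene Fn1 at 0.67 ± 0.16, and the secretory granule gene Pcsk1n at -0.59 ± 0.11. Fn1 stood at 388, 146 and 991 CPM against 499.8, 328 and 1357 CPM and was higher in each pair. Lars2, the gene that set CT99021 replicate 1 apart, was at -3.79 ± 1.57 (SE, edgeR adjusted p = 0.734), with 87277 CPM in that library and 328 to 1453 CPM in the other 5.

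Transcript length moved with the fold change to a small extent. Over 12270 genes with a mean of 5 CPM or more, Spearman's rho between length and log2 fold change was 0.20 across genes, which are not independent replicates. The median log2 fold change was 0.07 in the longest of 5 equal classes of length and -0.02 in the shortest. The part of length in the changes of single genes was not tested.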

How the data were processed

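Read counts per gene were deposited by the authors as raw whole numbers. Bowtie and mm9 are named per the submitters' processing notes. For these, no role or version was given, nor an annotation, a strand setting or a rule for multi-mapping reads (not given in the sources used here). Of 23965 gene rows, 1047 carry a locus suffix and were kept apart, and 1217 repeat rows stayed out of all fits of genes. CPM were computed from the deposited counts with trimmed mean of M values (TMM) factors.

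The main test was edgeR 4.0.16 (R 4.3.3), a quasi-likelihood fit to all 12 libraries with group means and the replicate number as a block, filterByExpr (15608 genes kept) and Benjamini-Hochberg adjustment. Intervals are 95%. The common biological coefficient of variation was 12.7%. Replicate ratios used 0.5 CPM as pseudocount.

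The block rests on the data and not on the labels. Deviations from group means correlated across genes at 0.496 to 0.828 in all 18 same-numbered pairs of libraries, and at -0.677 to 0.241 between different numbers. Within a group the deviations sum to 0, so values between different numbers tend to be negative when same-numbered values are positive. The second range is therefore no separate evidence. Replicates within a group differed by more than counting noise (chi-square per gene 36.2 to 136). The highest values, 114 and 136, came from pairs with CT99021 replicate 1, with its high Lars2 counted in. The other pairs gave 36.2 to 81.5.

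Members and gene lists were chosen with earlier results of these data known. Genes named were those past the test, 21 listed genes, and the 2 most abundant members of lists with none past it. Others are said to be chosen after their values were seen. Alternatives were the fit without the block, other sample sets, DESeq2 1.42.0, limma 3.58.1 (voom), other size factors and filters, and each library or replicate number left out. Scripts were tested on simulated data. Promoter windows are from RefSeq. Some genes that the naming rule takes are not reported here.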

Additional observations from a re-analysis of the deposited data

How the results depend on the processing

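The direction of Abca1, Abcg1 and Srebf1 was the same in all 25 alternatives, and Abca1 and Srebf1 passed in 21 and Abcg1 in 11. The calls depend on the pairing: without the replicate block edgeR called 0 genes in GW3965+CT99021 against CT99021 (0 higher, 0 lower, with 165 at an unadjusted p under 0.05), and 0 in GW3965 against Control (23 at an unadjusted p under 0.05). With only the 6 libraries of each comparison, with the block, the counts were 0 (558 at an unadjusted p under 0.05) and 1. DESeq2 with the block called 13 (10 higher, 3 lower) and 7, and edgeR with no filter on low counts called 3 and 5. The 7 libraries outside the set of 5 gave 90 (25 higher, 65 lower), 5 for GW3965 against Control and 60 for the interaction. That fit has 1 library with both compounds, and the cause was not tested.

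Leaving out single libraries or replicate numbers gave 0 to 10 calls, 0 to 9 of them higher and 0 to 1 lower. The interaction stayed at 0 and GW3965 against Control at 0 to 5. The counts of 0 came without replicate number 1 or 2, 9 genes passed without number 3, and the highest count came without GW3965+CT99021 replicate 3. Without CT99021 replicate 1, 2 genes passed. With a term for the 5 libraries 2 passed, and Abcg1 had an adjusted p of 0.179 by edgeR. Of 9308 values of genes not called, 737 had the opposite sign under an alternative. The smallest change called was 1.10 log2 units (Srebf1), while changes of 0.55 to 0.69 in Scd1, Scd2 and Scd3 were not called, and scarce genes such as Th and Nr1h3 had wider intervals.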

Other observations

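Without the 2 groups' libraries numbered 3, and those of the other groups, edgeR called 9 genes, 8 higher and 1 lower with GW3965 under CT99021. Besides Abca1, Abcg1, Srebf1, Scd2 and Scd3 these were Nid1, Col18a1 and Sparcl1, which encode proteins of basement membrane and extracellular matrix, and, lower, the mitochondrial transfer RNA gene mt-Ts1. Over all libraries Nid1 stood at 131, 72.3 and 364 CPM with CT99021 and at 242, 140.3 and 291 CPM with both compounds. Replicates 1 and 2 were higher with GW3965 and replicate 3 was lower, as for the medians of the mesenchyme and endothelial lists. The fitted log2 fold change of Nid1 was 0.53 ± 0.21 (SE, edgeR adjusted p = 0.734), and mt-Ts1 was at -0.75 ± 0.16. These genes were chosen after their values were seen, and the part of cell composition in them was not tested.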
